A study of Tachysurus fulvidraco x Tachysurus vachelli with 6 samples.

Results

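The tripartite motif (TRIM) genes in the liver of the hybrid yellow catfish, a cross of female Tachysurus fulvidraco with male Pseudobagrus vachellii, were taken from the deposited table as every row whose description contains "tripartite motif" or TRIM with a number, or whose symbol begins with trim and a number. This rule, which uses no measured value, found 229 of 28288 genes. The family itself was chosen with earlier results of these data known. Juvenile hybrid fish had been fed for 56 days on a diet with 4 g/kg Acanthopanax senticosus, the feed additive Siberian ginseng (T_liver, 3 libraries), or on the same feed with 0 g/kg (C_liver, 3 libraries). The fish of both groups were starved before their livers were taken, and their age is not given in the sources used here. The RNA was mixed within groups before poly(A) RNA was selected, the number of fish behind a library is not stated, and n therefore counts libraries. The reads of the hybrid were aligned to the genome of its maternal species, so transcripts of the paternal species were counted only as far as they match that genome.

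Most TRIM proteins, but not all, have a RING finger beside B-box zinc fingers and a coiled coil. Many are E3 ubiquitin ligases, the enzymes that pass ubiquitin to a chosen target protein. Which of these parts the catfish models have was not examined. In mammals several are induced by interferon and act on the sensors of viral RNA, while others act in autophagy, transcription or the cytoskeleton. Bony fish carry large lineage-specific expansions of the family, many of which are annotated only by their likeness to a numbered mammalian TRIM.

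In the catfish most members likewise carried only a few TRIM numbers, though no other species was compared. The 229 members fell under 32 TRIM numbers, but 86 were named for TRIM16, 47 for TRIM39, 30 for TRIM25 and 20 for TRIM35, and 211 of the 229 had a locus number in place of a gene symbol. The descriptions are matches in other fish, mostly the channel catfish, and 4 members had more than 1 TRIM number in theirs. The members lay on 88 scaffolds, and 144 of them stood in 36 clusters in which neighbours are no more than 50000 bp apart. The cluster with the most members held 10, on scaffold NW_020847858.1 between positions 528668 and 718039, of which 7 were named TRIM16, 2 TRIM25 and 1 TRIM11. A cluster of 5 on NW_020847997.1 held TRIM39 models alone. Coordinates are those of the deposited table, whose genome build is not given in the sources used here. The deposited pathway annotation placed 140 of the members in the KEGG RIG-I-like receptor signaling pathway, which held 239 genes in all. TRIM models thus made up 58.6% of the genes listed for this antiviral pathway. Of the 140, 82 were named TRIM16, 29 TRIM25, 10 TRIM39 and 3 TRIM35. The same number of members, 140, carried a single KEGG ortholog entry, K10652. The listing is an annotation, and a role of these models in the pathway was not tested.

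The counts on genes summed to between 44153673 and 51459627 per library. The libraries had the hallmarks of liver, with 18 hepatocyte genes summing to 81421–117800 CPM (counts scaled to a common library size) in T_liver and 87809–135145 CPM in C_liver, while 12 of 17 skeletal muscle genes were at 0 in all libraries. C_liver replicate 3 stood apart over the whole table and held the highest value of 25.2% and the lowest value of 26.8% of all tested genes.

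The liver used part of the family. Of the 229 members 205 had a count in at least 1 library, 144 had one in every library, and 90 reached the mean of 1 FPKM (fragments scaled by gene length and library size) over the 6 libraries that was needed for testing, as did 11521 of all 28288 genes. Only 6 reached a mean of 10 FPKM. The named groups differed in how many members the liver used, with 40 of the 86 TRIM16 models tested and 16 of the 30 TRIM25 models, but 6 of the 47 TRIM39 models and 6 of the 20 TRIM35 models. The 24 members without any count included trim50 and trim67. In human and mouse the related TRIM50 is known from the stomach and TRIM67 from the nervous system.

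The diets were compared by the quasi-likelihood test of edgeR, and genes were called when the unadjusted P lay under 0.05 and the log2 fold change reached 1 in either direction. By this criterion 3 of the 90 tested members were called (3.33%), all higher in T_liver, beside 3.11% of all 11521 tested genes and 1.49% called higher. The share of members called was thus near that of all genes. Of the 3 called members, LOC113663911 had no count in any C_liver library. It met the minimum of 1 FPKM through T_liver alone. It could therefore only be higher, both here and among the log2 fold changes counted below. No gene of the table reached an adjusted P of 0.05 by edgeR with Benjamini-Hochberg adjustment, where the smallest adjusted P was 0.273 among all genes and 0.676 among the members. An unadjusted P under 0.05 was found for 9 members, 8 of them higher and 1 lower in T_liver, beside 6.64% of all tested genes, 3.17% higher and 3.47% lower.

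The members leaned to one side although few were called. In 74 of the 90 tested members (82.2%) the log2 fold change was above 0, beside 49.6% of all tested genes, and their median log2 fold change was 0.49, beside -0.005 for all tested genes. In 14 members (15.6%) every T_liver library lay above every C_liver library, which was so in 5.96% of all tested genes. The opposite order was found in 1 member (1.11%), beside 7.10% of all tested genes. These counts describe a list that was chosen with earlier results of these data known, and they carry no test. Without any minimum of expression 10 of the 205 members with a count were called, 7 of them higher, beside 3.77% of all genes with a count. The lean was then smaller, with 137 of the 205 above 0 (66.8%), beside 48.9% of all such genes, and among the 115 members below the FPKM minimum it was 63 (54.8%), beside 49.1% of all genes below it.

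The excess came from some libraries more than from others. T_liver replicate 1 was the highest of the 6 libraries in 40 of the 90 tested members, T_liver replicate 2 in 22 and T_liver replicate 3 in 6, while C_liver replicate 3 was the lowest in 37. Over all tested genes T_liver replicate 1 was the highest in 17.6%. On the log2(CPM + 0.5) scale, the median member lay 0.42 above its own mean over the 6 libraries in T_liver replicate 1, 0.22 above in T_liver replicate 2 and at -0.03 in T_liver replicate 3. The same median was -0.10, -0.02 and -0.30 in C_liver replicates 1, 2 and 3. T_liver replicate 3 therefore stood among C_liver replicates 1 and 2 and not with the other T_liver libraries. Without both T_liver replicate 1 and C_liver replicate 3, a setting chosen after seeing the data, 66 of the 90 members had a log2 fold change above 0 and the median was 0.21.

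**Figure D1:**
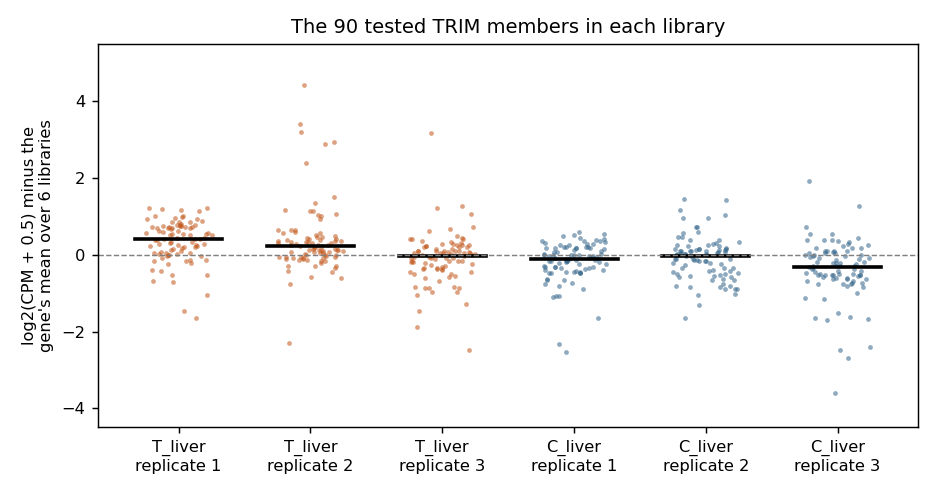
Log2(CPM + 0.5) of each of the 90 tested TRIM members minus the same gene's mean over the 6 libraries (vertical axis), by library, with T_liver in orange and C_liver in blue. Points are members and black lines are medians, which lie at 0.42, 0.22 and -0.03 in T_liver replicates 1, 2 and 3 and at -0.10, -0.02 and -0.30 in C_liver replicates 1, 2 and 3.

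In whole liver tissue, fewer cells of a type and less RNA per cell cannot be told apart. Several TRIM genes are active in leukocytes, so leukocyte markers are given beside the members. The 14 macrophage and other leukocyte genes, of which 2 PU.1-like models, LOC113650691 and LOC113653869, were at 0 throughout, summed to 270–365 CPM in T_liver and 343–584 CPM in C_liver. Of the 10 tested, 1 was higher, ptprc, described as a CD45 precursor (log2 fold change 0.48, unadjusted P = 0.107, edgeR). The 1 called was csf1r, the receptor of macrophage colony-stimulating factor, which was lower in T_liver. Most of each leukocyte sum came from LOC113654954, described as a class II histocompatibility antigen gamma chain, and the macrosialin-like LOC113657532. LOC113654954 was lower in T_liver without overlap (log2 fold change -0.83, unadjusted P = 0.0495, edgeR), short of the fold change threshold. LOC113657532 overlapped between the groups. The 10 T and NK cell genes, 1 of them tested, summed to 22.0–24.7 CPM in T_liver and 21.6–22.0 CPM in C_liver. Most of each sum came from the 1 tested, LOC113654430, described as a cytokine receptor common subunit gamma. Among the others, cd3e lay lower in every T_liver library than in any C_liver library. The ZAP-70 model LOC113654642 had the opposite order. For the 39 B cell genes, 2 of them tested, the sums were 25.2–47.6 CPM in T_liver and 20.3–40.5 CPM in C_liver. Most genes of this list are described as CD22-like, and the 2 tested genes differed in direction. The CD22-like model LOC113657027 was higher in T_liver (log2 fold change 0.48), with overlapping groups. The B cell antigen receptor gene cd79a was lower without overlap (log2 fold change -0.57, unadjusted P = 0.123, edgeR). Its levels were 2.05, 2.62 and 2.34 CPM in T_liver replicates 1, 2 and 3, against 3.37, 3.82 and 3.21 CPM in C_liver. Genes of the exocrine pancreas, which many fish carry within the liver, were higher in T_liver in all 18 tested cases. Of these, 14 were called by the unadjusted P, while the smallest adjusted P was 0.509 (LOC113644463, edgeR). In this list 4 of its 24 genes were at 0 throughout. It summed to 1035, 343 and 803 CPM in T_liver replicates 1, 2 and 3, against 91.1, 70.9 and 279 CPM in C_liver replicates 1, 2 and 3. The sum was thus lowest within T_liver in replicate 2 and highest within C_liver in replicate 3. The TRIM medians did not have this order of libraries. Whether the libraries differed in their amount of pancreatic tissue was not tested. The part of the pancreas genes in the levels of the TRIM genes was not tested either.

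Sorted by name, the TRIM25 and TRIM16 models carried most of the higher values, as the plot of log2 fold changes by TRIM name shows. They also made up most of the tested members. Among TRIM25 models 15 of 16 tested had a log2 fold change above 0, with a median of 0.64 that stayed between 0.45 and 0.82 when each library was left out in turn. Among TRIM16 models it was 34 of 40, with a median of 0.55 and a range of 0.35 to 0.67. The 6 tested TRIM39 models had 5 above 0 and a median of 0.32, but this median ranged from -0.01 to 1.10 as libraries were left out. The 6 tested TRIM35 models had 2 above 0 and a median of -0.23, with a range of -0.37 to 0.34. The 4 TRIM2 models had a median of 2.38, which single libraries carried as described further on. The 18 tested members with any other name had 14 above 0 and a median of 0.20. Together with the TRIM2 models these were 22 tested members, of which 18 were above 0 (81.8%), beside 85.0% of the TRIM16 models. The differences between these named groups were not tested.

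**Figure D2:**
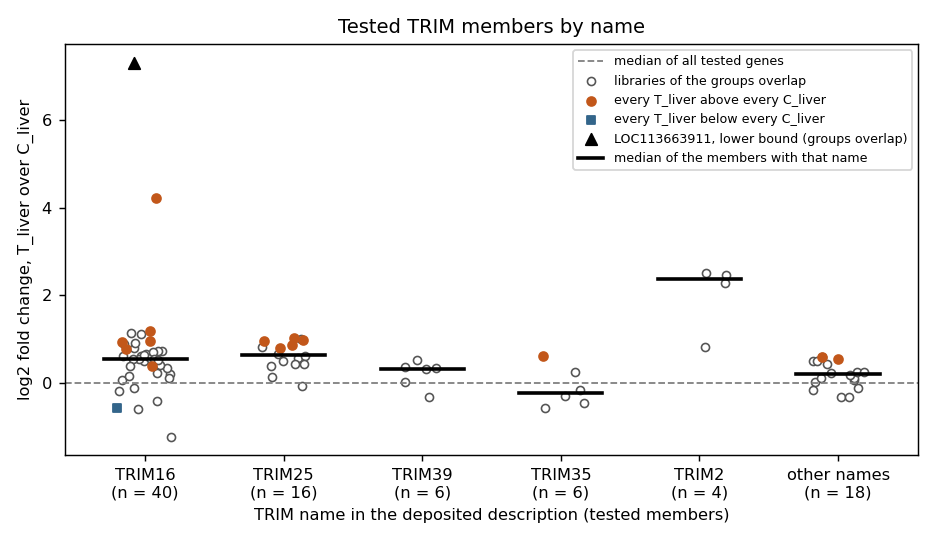
Log2 fold change of T_liver over C_liver for the 90 tested TRIM members (vertical axis), by the TRIM name in the deposited description. Filled points are members whose groups do not overlap, black bars are medians (0.55 for TRIM16, 0.64 for TRIM25, 0.32 for TRIM39, -0.23 for TRIM35, 2.38 for TRIM2 and 0.20 for other names), the dashed line is the median of all tested genes (-0.005), and the triangle marks LOC113663911 at its lower bound of 7.31.

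TRIM25 is the member best known from antiviral defence. In human and mouse cells it adds ubiquitin chains to the RNA sensor RIG-I and joins the ubiquitin-like protein ISG15 to targets. The catfish gene with the symbol trim25 (NW_020847995.1:95641-105250) had the fourth highest mean of the family, 16.0 FPKM. It was measured at 66.3, 42.2 and 51.7 CPM in T_liver replicates 1, 2 and 3, against 42.1, 23.6 and 16.2 CPM in C_liver replicates 1, 2 and 3. The groups did not overlap, but T_liver replicate 2 and C_liver replicate 1 were almost level. Its log2 fold change was 0.97 ± 0.38 (SE), just under the threshold, with an unadjusted P of 0.0384 (edgeR, adjusted P = 0.676). It passed the criterion when C_liver replicate 1 or T_liver replicate 2 was left out, and its unadjusted P was between 0.0685 and 0.113 when any of the other 4 libraries was left out. The exact 2-sided permutation test over libraries gave p = 0.1, the smallest value that 3 libraries against 3 allow.

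A second TRIM25 model, LOC113649460 (NW_020847873.1:100093-104733), whose description also names TRIM11, did not overlap between the groups either. It had 24.5, 18.8 and 16.2 CPM in T_liver replicates 1, 2 and 3, against 10.9, 7.98 and 11.3 CPM in C_liver replicates 1, 2 and 3. All 3 T_liver libraries were above all C_liver libraries, by a gap smaller than the range within T_liver. The log2 fold change was 0.98 ± 0.26 (SE), with the smallest unadjusted P of the family, 0.00705, and an adjusted P of 0.676 (edgeR). It too passed the criterion when any of 4 libraries was left out, C_liver replicate 1 or 3 or T_liver replicate 2 or 3. LOC113647929 (NW_020847831.1:280196-283719) was the TRIM25 model that was called. It had 4.84, 3.86 and 3.30 CPM in T_liver and 1.43, 2.70 and 1.78 CPM in C_liver. Here, too, the groups did not overlap, at a level of only 1.49 FPKM. Its log2 fold change of 1.02 ± 0.39 (SE; unadjusted P = 0.0333, adjusted P = 0.676, edgeR) lay just above the threshold, and the call was lost when T_liver replicate 1, T_liver replicate 2, C_liver replicate 1 or C_liver replicate 3 was left out, at log2 fold changes between 0.83 and 1.05.

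Over the 30 TRIM25 models the summed level was 230, 203 and 154 CPM in T_liver replicates 1, 2 and 3, against 141, 122 and 99.8 CPM in C_liver replicates 1, 2 and 3. The sums did not overlap, but this rested on trim25 and LOC113649460 together. Without both of them, T_liver replicate 3 lay below C_liver replicates 1 and 2. With 3 other members they made up the 5 TRIM25 models, of 16 tested, with all T_liver libraries on top. Over all tested genes this order was found in 5.96%.

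The TRIM16 models were the group with the most members and held the 3 with the highest mean FPKM. In human cells TRIM16 takes part in the autophagy of damaged lysosomes. What the many fish models named for it do is less known. LOC113637338 (NW_020847778.1:1199019-1202410), with a mean of 16.9 FPKM, had 61.2, 39.9 and 30.3 CPM in T_liver replicates 1, 2 and 3, against 24.6, 23.2 and 19.5 CPM in C_liver replicates 1, 2 and 3. The groups did not overlap, and the T_liver libraries were spread more widely than the C_liver libraries. The log2 fold change was 0.96 ± 0.30 (SE; unadjusted P = 0.0145, adjusted P = 0.676, edgeR).

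LOC113655122 (NW_020847967.1:1431944-1437750), with a mean of 20.8 FPKM, was the one tested member that lay lower in every T_liver library. It had 30.6, 40.2 and 29.6 CPM in T_liver replicates 1, 2 and 3, against 46.4, 43.2 and 59.5 CPM in C_liver replicates 1, 2 and 3. Its log2 fold change was -0.57 ± 0.24 (SE; unadjusted P = 0.0497, adjusted P = 0.676, edgeR), short of the fold change threshold. LOC113658671 (NW_020848020.1:1252990-1253702) had the opposite order at a much lower level, with 3.32, 1.57 and 1.61 CPM in T_liver and 0.70, 1.47 and 0.69 CPM in C_liver. T_liver replicates 2 and 3 were close to C_liver replicate 2. Its log2 fold change of 1.18 ± 0.56 (SE) had an unadjusted P of 0.0717, and it was not called. LOC113648621 (NW_020847856.1:50872-52178), the sixth in mean FPKM at 10.1, had 7.30, 16.8 and 5.53 CPM in T_liver and 9.02, 4.86 and 4.89 CPM in C_liver. Its groups overlapped and a single library, T_liver replicate 2, was high.

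**Figure D3:**
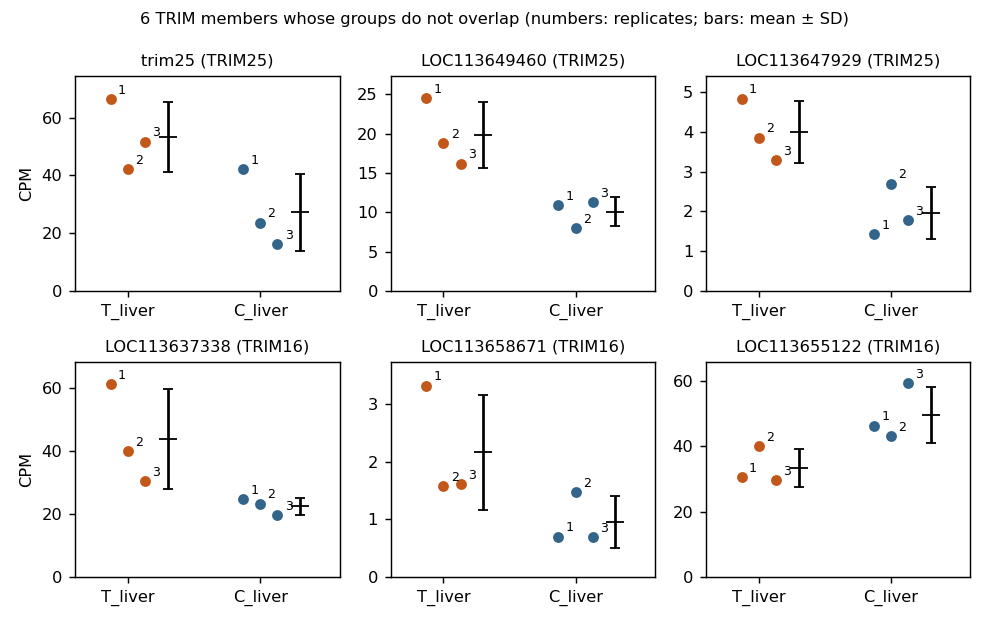
CPM (vertical axes, from 0) of trim25, LOC113649460 and LOC113647929 (TRIM25) and of LOC113637338, LOC113658671 and LOC113655122 (TRIM16) in T_liver (orange) and C_liver (blue), with replicate numbers beside the points and black bars for mean ± SD (n = 3 libraries each). In the first 5 genes all T_liver libraries are above all C_liver libraries, and in LOC113655122 they are below.

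LOC113649456 (NW_020847873.1:122227-126873), a TRIM16 model, had the highest mean FPKM of the family (26.7), owed to a single library. It had 12.2, 271 and 6.43 CPM in T_liver replicates 1, 2 and 3, against 6.38, 5.63 and 3.61 CPM in C_liver replicates 1, 2 and 3. T_liver replicate 2 alone held 12234 counts, while the other 5 libraries held between 142 and 508, and T_liver replicate 3 exceeded C_liver replicate 1 only narrowly. The log2 fold change was 4.21 ± 1.39 (SE; unadjusted P = 0.0183, adjusted P = 0.676, edgeR), and it fell to 0.84 and was not called without T_liver replicate 2. Leaving out C_liver replicate 2 or C_liver replicate 3 also ended the call, at log2 fold changes of 4.27 and 4.00 and unadjusted P values of 0.0520 and 0.0628 (edgeR). The neighbours of this gene did not share the peak. LOC113649460, at a distance of less than 50000 bp, had its highest value in T_liver replicate 1, and the TRIM25 model LOC113649453 on the other side had 30.7 and 30.3 CPM in T_liver replicates 1 and 2, and 17.5 CPM in T_liver replicate 3, against 22.7, 10.7 and 16.3 CPM in C_liver. All 5 members of this scaffold had a log2 fold change above 0, with a median of 0.81.

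LOC113663911 (NW_020848121.1:3326-7842), a partial TRIM16 model, was the third called member. It had 0, 728 and 725 counts in T_liver replicates 1, 2 and 3 and no count in any C_liver library. The mean of T_liver, 9.91 CPM, was at least 158-fold higher than C_liver with 3 counts set as the floor for every library, and with T_liver replicate 1 at 0 the groups overlapped (edgeR, unadjusted P = 0.0119, adjusted P = 0.676; exact permutation p = 0.4). The call was kept when any single library was left out, but it was lost by limma on log2(FPKM + 0.1), at an unadjusted P of 0.0509. By limma on log2(FPKM + 1) the call was kept at a log2 fold change of 1.84. The model overlaps akt1s1, the gene of a substrate of the kinase AKT, by 1283 bp on the other strand, and the sources used here do not say that reads were counted by strand. Levels of akt1s1 were 32.0, 9.89 and 11.8 CPM in T_liver replicates 1, 2 and 3, against 30.7, 23.6 and 26.2 CPM in C_liver. Thus akt1s1 was low in those 2 libraries in which LOC113663911 was present. The sum of both genes was 32.0, 26.0 and 25.4 CPM in T_liver and 30.7, 23.6 and 26.2 CPM in C_liver, and these sums overlapped (exact permutation p = 0.7). Reads of the 2 genes cannot be told apart where they overlap. In all, 41 members overlapped another gene of the table, 18 of them tested.

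The models named for TRIM2 formed another set that single libraries carried. TRIM2 is known from mouse neurons, where it marks a neurofilament subunit for removal. LOC113638334, LOC113652977 and LOC113661922 lie on 3 different scaffolds, yet their FPKM values differed within a library by no more than a factor of 1.22 in the 5 libraries in which all had a count. They were chosen for this after their values were seen. They had 2.93–3.17, 12.0–12.3 and 0.69–0.85 FPKM in T_liver replicates 1, 2 and 3, against 2.07–2.42 and 1.09–1.20 FPKM in C_liver replicates 1 and 2 and at most 0.144 FPKM in C_liver replicate 3. T_liver replicate 2 was the highest and C_liver replicate 3 the lowest, and T_liver replicate 3 lay below C_liver replicates 1 and 2. Their log2 fold changes were 2.47, 2.29 and 2.52, with unadjusted P values of 0.0650, 0.0810 and 0.144 by edgeR, and none was called. Models this alike can share reads, so they are not separate observations. LOC113634838, named TRIM2-like, was also highest in T_liver replicate 2, with 3.49, 43.2 and 1.76 CPM in T_liver and 11.1, 9.43 and 6.64 CPM in C_liver, and its other T_liver libraries were below all C_liver libraries.

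**Figure D4:**
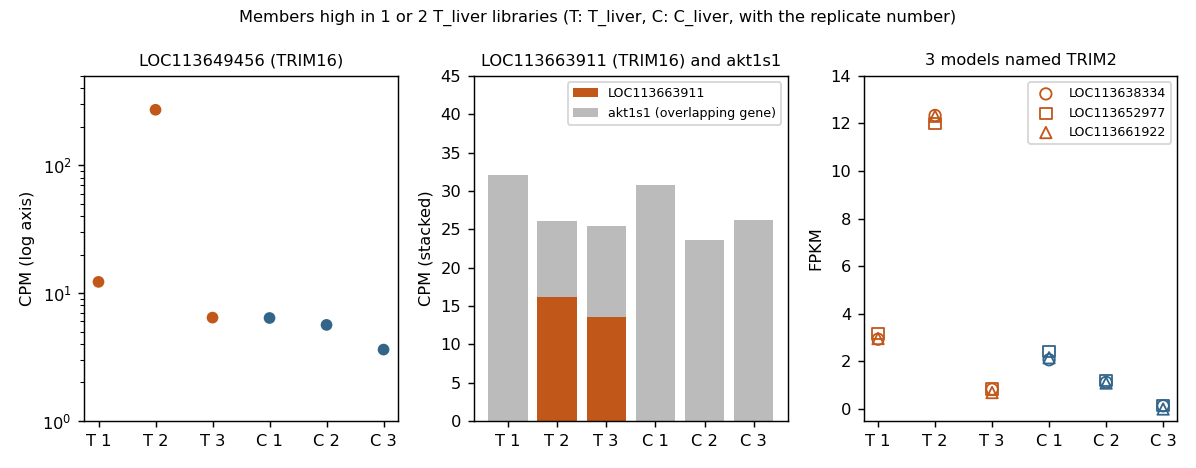
Members that were high in 1 or 2 T_liver libraries, by library, with T_liver in orange and C_liver in blue in the outer panels. Left, CPM of LOC113649456 on a log axis, with 271 in T_liver replicate 2 and 3.61 to 12.2 elsewhere. Middle, CPM of LOC113663911 (orange) with that of its overlapping neighbour akt1s1 (grey) stacked on top. Their sum is 25.4 to 32.0 in T_liver and 23.6 to 30.7 in C_liver. Right, FPKM of 3 models named TRIM2, which nearly coincide in each library and reach 12.3 in T_liver replicate 2.

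Of the 47 TRIM39 models 21 had a count in every library, 6 had none in any, and the others were at 0 in some libraries. TRIM39 is a ubiquitin ligase linked to cell death and the cell cycle in human cells, and fish carry many relatives of it. Of the 154 members that reached 50 counts in at least 1 library, 18 had no count at all in another (11.7%), beside 7.40% of all genes that reached 50 counts. Among the TRIM39 models it was 11 of 28, among the TRIM16 models 4 of 60, among the TRIM35 models 2 of 10 and among the TRIM2 models 1 of 4. The zeros fell in both groups, and a difference in their number between the diets was not tested. Of these 18 members, 8, 4 and 2 were at 0 in T_liver replicates 1, 2 and 3, and 8, 3 and 10 in C_liver replicates 1, 2 and 3. A count of 0 allows up to 3 counts, and this floor covers counting error only.

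Some neighbouring TRIM39 models shared their libraries, and others did not. The overlapping TRIM39 models LOC113663160 and LOC113663176 on NW_020848100.1 differed. In T_liver replicates 1, 2 and 3 LOC113663160 had 4.43, 3.10 and 2.34 CPM, and LOC113663176 had 0.144, 1.24 and 0.656 CPM. Shared patterns were seen in the models that follow, which were picked after their values were seen. LOC113657821, LOC113657812 and LOC113657816 lie in a row on NW_020847769.1 between positions 8930195 and 8945210. In T_liver replicates 1, 2 and 3 LOC113657821 had 0, 0 and 30 counts, against 0, 69 and 0 in C_liver. LOC113657812 had 0, 26 and 45 counts in T_liver, against 0, 66 and 0 in C_liver. LOC113657816 had 0, 10 and 41 counts in T_liver, against 0, 53 and 0 in C_liver. All 3 were highest in C_liver replicate 2 and absent from T_liver replicate 1 and C_liver replicates 1 and 3. A different pair, LOC113649339 and LOC113649349 on NW_020847867.1, was highest in C_liver replicate 1. LOC113649339 had 0, 15 and 0 counts in T_liver, against 114, 6 and 8 in C_liver, and LOC113649349 had 0, 20 and 21 in T_liver, against 91, 17 and 6 in C_liver. The best expressed model of this kind, LOC113650981 (NW_020847901.1:419228-424517), had 23, 268 and 335 counts in T_liver, against 0, 406 and 110 in C_liver. Its log2 fold change of 0.32 ± 1.48 (SE) turned negative when C_liver replicate 1 or T_liver replicate 3 was left out. On the same scaffold LOC113651006, a TRIM39 model at 6.64 FPKM named here after its values were seen, had the same order of libraries within the groups, with 4.69, 16.4 and 16.9 CPM in T_liver and 1.17, 18.4 and 6.69 CPM in C_liver.

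The remaining TRIM39 models of this kind followed no common order of libraries. LOC113634022 had 0, 24 and 65 counts in T_liver, against 0, 18 and 14 in C_liver. LOC113663137 had 42, 32 and 41 counts in T_liver, against 19, 51 and 0 in C_liver. LOC113641025 had 12, 43 and 23 counts in T_liver, against 77, 0 and 0 in C_liver. In each of them the groups overlapped. LOC113663201 had 54, 0 and 42 counts in T_liver, against 0, 16 and 5 in C_liver. LOC113663203 was seen only in T_liver replicate 2, with 53 counts, and C_liver replicate 2, with 20 counts. None of these 5 reached the minimum for testing.

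The others with such zeros were named for TRIM16, TRIM35 and TRIM2. The TRIM2 model LOC113661922, described above, had 539, 2496 and 139 counts in T_liver, against 429, 232 and 0 in C_liver. LOC113658642 had 216, 0 and 286 counts in T_liver, against 69, 118 and 84 in C_liver, and LOC113648490 had 172, 0 and 165 counts in T_liver, against 273, 218 and 116 in C_liver. Both TRIM16 models were thus missing from T_liver replicate 2 alone, and LOC113658642 was the one tested (log2 fold change 0.91 ± 1.32 SE, unadjusted P = 0.508, edgeR). LOC113648445 had 31, 44 and 51 counts in T_liver, against 40, 36 and 0 in C_liver. Of the TRIM35 models, LOC113641013 had 28, 50 and 82 counts in T_liver, against 8, 49 and 0 in C_liver, and LOC113662196 had 32, 69 and 35 counts in T_liver, against 58, 0 and 23 in C_liver.

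**Figure D5:**
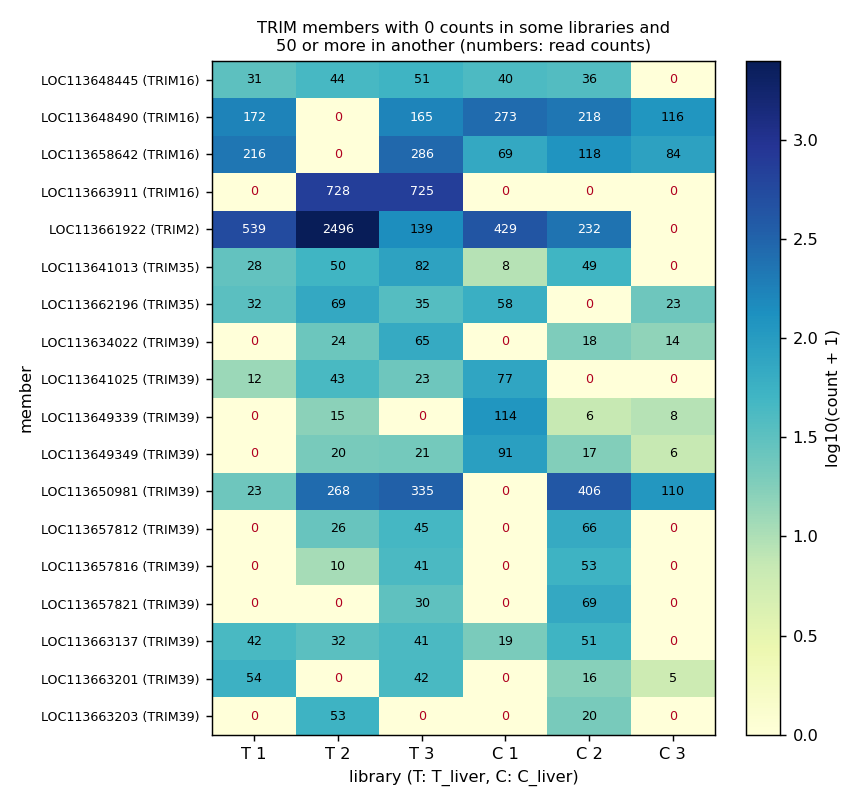
Read counts of the 18 TRIM members (rows) with 0 counts in at least 1 library and 50 or more in another, in the 6 libraries (columns, T_liver left of C_liver). Colour is log10(count + 1) and the numbers are counts. Of the 18 members 11 are TRIM39 models, and the zeros fall in both groups, with 8, 4 and 2 in T_liver replicates 1, 2 and 3 and 8, 3 and 10 in C_liver replicates 1, 2 and 3.

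Several other TRIM numbers had only 1 or 2 members. TRIM33, a cofactor of SMAD proteins in TGF-beta signalling, was measured as trim33 (NW_020847801.1:11422398-11453457) at 19.2, 15.0 and 17.7 CPM in T_liver, against 16.3, 15.3 and 16.5 CPM in C_liver. The groups overlapped, and the log2 fold change was 0.11 ± 0.21 (SE; unadjusted P = 0.607, edgeR). In mammals TRIM65 acts on the RNA sensor MDA5, and trim65 had 2.48, 1.37 and 1.61 CPM in T_liver, against 3.24, 3.63 and 1.50 CPM in C_liver. TRIM37, a ligase that limits the number of centrioles in human cells, was present as trim37 at 4.98, 1.75 and 2.90 CPM in T_liver and 2.54, 2.92 and 2.32 CPM in C_liver. Both overlapped between groups and stayed below the minimum for testing. The 2 TRIM8 models, named for a regulator of cytokine signalling, had log2 fold changes of 0.02 and -0.32, and the TRIM69 model had one of -0.32. Of the muscle members trim55 was tested, with a log2 fold change of 0.11. No member had trim24, trim28 or trim14 as its symbol, although 2 models were described as TRIM14-like, of which 1 was tested. Over the 3 T_liver libraries that model, LOC113654963, had 11.2–12.0 CPM, against 10.1, 10.9 and 2.77 CPM in C_liver, so that the groups did not overlap while only C_liver replicate 3 was far off.

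Position along the genome was a further feature that the naming did not use. Of the 57 tested members in clusters, 45 had a log2 fold change above 0 and the median was 0.54, and of the 33 tested members standing alone it was 29, with a median of 0.38. In the cluster of 10 on NW_020847858.1 all 6 tested members were above 0, with a median of 0.56, and in a cluster of 8 on NW_020847798.1, made up of 7 TRIM16 models and 1 TRIM25 model, all 6 tested members were above 0, with a median of 0.75. Of 3 clusters of TRIM16 models on NW_020848020.1, the one between positions 393771 and 456583 had 2 tested members, both below 0, with a median of -0.67. The next, between 680545 and 725828, had 2 tested members above 0, with a median of 0.62, and the one between 1184993 and 1280624 had 3 above 0, with a median of 0.63. A cluster of 9 TRIM16 models on NW_020847849.1 had no tested member. Close copies may share reads, so members of a cluster are not independent observations.

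The genes with which TRIM ligases work are given beside the members. A list of 50 genes of innate antiviral signalling and ubiquitin transfer had 32 tested members, of which 1 was called higher, none was called lower and 20 had a log2 fold change above 0, with a median of 0.08. The 50 genes summed to 1045, 815 and 939 CPM in T_liver replicates 1, 2 and 3, against 693–739 CPM in C_liver, without overlap. This separation rested on the 1 called gene. Without it, T_liver replicates 2 and 3 did not lie above all C_liver libraries. The called gene was LOC113660522, described as STAT2, a transcription factor of the interferon response. It had 38.0, 143 and 298 CPM in T_liver replicates 1, 2 and 3, against 32.6, 35.9 and 38.8 CPM in C_liver. T_liver replicate 1, which was the highest library for more TRIM members than any other, was at the level of C_liver, and the groups overlapped (log2 fold change 2.16 ± 0.66 SE, unadjusted P = 0.0126, adjusted P = 0.676, edgeR). The deposited RIG-I-like receptor pathway held 62 tested TRIM members, of which 40 were named TRIM16 and 16 TRIM25. Their median log2 fold change was 0.54, with 53 above 0, whereas the 63 other tested genes had a median of 0.07, with 37 above 0. The sum over the 99 other genes was 1849, 1597 and 1492 CPM in T_liver replicates 1, 2 and 3, against 1335, 1459 and 1128 CPM in C_liver replicates 1, 2 and 3. These sums did not overlap, but T_liver replicate 3 and C_liver replicate 2 were almost level. The difference between these lists was not tested.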

How the data were processed

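The authors trimmed the reads, mapped them by HISAT onto the T. fulvidraco genome and deposited 1 table with whole-number read counts and FPKM values of 28288 genes in 6 libraries, in which an FPKM of 0 is written as 0.0001. The submitters' processing notes list HISAT2 2.0, StringTie 1.3.0 and Bowtie 0.12.2 without their roles. No source used here names the counting tool, the build or how multiply mapped reads were handled, so counts of near-identical copies are uncertain. The deposited FPKM values were used for the filter and for levels set beside each other between genes. The TRIM members and all gene lists were chosen with earlier results of these data known.

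Testing required a mean of 1 FPKM (11521 genes). Counts were scaled by TMM and compared by edgeR 4.0.16 (quasi-likelihood test, trended dispersion, no covariate; R 4.3.3), with Benjamini-Hochberg adjustment over all tested genes. CPM are counts divided by the scaled library size. Standard errors were derived from the F statistics. Whether replicates are separate fish is not stated, so P values measure the spread between libraries. Single values were compared by exact 2-sided permutation tests on CPM. The test was also run on simulated counts with changes of known size. Those counts did not model peaks in a single library, such as that of LOC113649456, so they do not bear on such calls. Members were named with all values if called, if among the 6 highest in FPKM, if among the 4 with the largest change per direction whose groups did not overlap, if at 0 counts in 1 library and at 50 or more in another, or if LOC113649456 or trim25, trim28, trim24, trim33, trim37, trim14 or trim65. Partner and marker genes without a symbol were matched by their description, in forms written after the file was seen. Alternatives changed the scaling, the filter, the tool (DESeq2 1.42.0, limma 3.58.1 on log2 FPKM), the call rule and the libraries. Sequences of the members were not analysed here.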

Additional observations from a re-analysis of the deposited data

How the results depend on the processing

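The count of called members (3) and of all called genes (358) moved with the filter, the tool and the libraries. Called members and all called genes numbered 10 and 774 without a filter on low values, 5 and 542 with filterByExpr, 5 and 521 with DESeq2, 1 and 190 with limma on log2(FPKM + 1), 2 and 175 at a mean FPKM of at least 5, and 2 and 231 with T_liver replicates 2 and 3 against C_liver replicates 1 and 2. By adjusted P under 0.05 (edgeR) 0 members and 0 genes were called, while 9 members and 765 genes had an unadjusted P under 0.05, and DESeq2 gave 38 genes and 0 members at an adjusted P under 0.05. Without each replicate in turn, 2 to 11 members were called, and these numbers did not follow those of all called genes. The 2 members came with 311 genes (T_liver replicate 1 left out) and the 11 with 371 genes (T_liver replicate 3 left out). All called genes ranged from 248, with 3 members (C_liver replicate 3 left out), to 643, with 9 members (T_liver replicate 2 left out). With the replicate number as a block 5 members and 329 genes were called, but the numbers do not pair the libraries, since same-numbered libraries deviated with correlations of -0.09, 0.04 and -0.13. The median log2 fold change of the members was positive under each setting run, at 0.31 to 0.67 for those planned and 0.21 for T_liver replicates 2 and 3 against C_liver replicates 1 and 2, chosen after seeing the data. Of 200 refits of the 13 named tested members, 164 kept their direction and side of the threshold, 17 lost the call, 16 gained it and 3 turned the direction. The direction turned in LOC113650981, which ranged from -0.27 (C_liver replicate 1 left out) to 1.62 (C_liver replicate 2 left out) and was at -0.072 when T_liver replicate 3 was left out, and in LOC113658642 with limma on log2(FPKM + 0.1) (-0.053). The causes were not tested. The 139 members below the FPKM minimum were not tested in the main comparison, and 24 of them had no count.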
